A study of Mus musculus with 8 samples.

Results

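The fibroblast growth factor (FGF) ligands and receptors and the epidermal growth factor receptor were followed in fibroblasts of the healing mouse infarct. The set was taken by gene name from a table of 54532 genes and holds 9: the ligand genes Fgf2, Fgf7, Fgf10 and Fgf18, the receptor genes Fgfr1, Fgfr2, Fgfr3 and Fgfrl1, and Egfr. The cells had been sorted for PDGFRα from infarcts 7 days after a coronary artery was occluded and were not cultured. The groups were 4 FTbR2KO samples, from mice with fibroblast-specific loss of the TGF-β receptor TbR2 (gene Tgfbr2), and 4 TbR2fl/fl controls with the floxed gene. Mice of both groups had received tamoxifen by injection. The Cre driver, strain, age and any pooling are not given in the sources used here. Libraries are named by group and by their number in the titles, 1 to 4 for FTbR2KO and 5 to 8 for TbR2fl/fl.

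FGFs are small heparin-binding proteins that signal through receptor tyrosine kinases, together with heparan sulphate on the cell surface, and switch on the Ras-ERK cascade. Receptor splice forms set which ligands bind: mesenchymal cells mostly use the c forms, whereas Fgf7 and Fgf10 are made by mesenchyme and act on the b form of Fgfr2 on epithelia. Fgf2 is a mitogen for fibroblasts and endothelial cells, and Fgfrl1 is a receptor without a kinase domain. Egfr is the receptor of EGF, TGF-α, amphiregulin, betacellulin, epiregulin and HB-EGF and feeds the same cascade. Gene-level values do not tell splice forms apart.

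Levels are in FPKM, read fragments divided by gene length and by a scaling factor of each library. Those of different genes can therefore be set side by side. Fold changes are differences of mean log2(FPKM + 1). Recovered depth was 16.1 to 22.9 M reads in FTbR2KO and 21.2 to 28.7 M in TbR2fl/fl libraries. Tgfbr2 itself was at 58.2 ± 1.30 FPKM in the libraries labelled FTbR2KO and 45.5 ± 3.86 FPKM in TbR2fl/fl libraries (SD, n = 4 each), so all 4 libraries of that label lay above all controls, against the label. The difference did not pass the adjusted threshold of 0.05 (log2 fold change 0.35, SE 0.086, limma adjusted p = 0.571). Of all 11667 tested genes, 2.52% lay higher in FTbR2KO without overlap. A gene-level value does not show whether an internal exon was removed, and every direction given here goes by the library labels. The Y-linked transcript Ddx3y was found at 15.6 FPKM in FTbR2KO 4 and 14.2 FPKM in TbR2fl/fl 8 and at no more than 0.0470 FPKM in the other 6 libraries. Xist was at 0.0561 FPKM in FTbR2KO 4 and 0.0215 FPKM in TbR2fl/fl 8, and at 30.7 to 49.7 FPKM in the other 6. FTbR2KO 1 and TbR2fl/fl 5 had the lowest sample weights in limma (0.550 and 0.381, against 0.885 to 2.96 in the others). All 10 fibroblast markers passed the filter (summed level 11943 to 14447 FPKM in FTbR2KO and 13751 to 15475 FPKM in TbR2fl/fl libraries). Endothelial markers summed to 1.42 to 3.37 FPKM in FTbR2KO and 2.37 to 3.99 FPKM in TbR2fl/fl libraries, with none of 8 past the filter. Macrophage and monocyte markers summed to 8.33 to 12.6 FPKM in FTbR2KO and 10.3 to 12.7 FPKM in TbR2fl/fl libraries. Of these, 3 of 10 passed the filter, as did 2 of 5 Schwann, 1 of 7 cardiomyocyte and 1 of 6 adipocyte markers. Mural markers passed in 7 of 7 cases and epicardial and mesothelial markers in 7 of 8, so RNA of such cells, or their genes in the sorted cells, was present.

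Of the 9 genes, 8 passed the filter of at least 1 FPKM in at least 4 libraries, and Fgf10 did not. None of the 8 passed limma's adjusted threshold of 0.05 in either direction, against 0.0171% of all 11667 tested genes. At an unadjusted p under 0.05 there were 2, Egfr and Fgf7, both higher in FTbR2KO libraries (8.61% of all tested genes, 3.74% higher and 4.87% lower in FTbR2KO). The groups did not overlap for 1, Egfr, which was higher in FTbR2KO (4.41% of all tested genes, 2.52% higher and 1.89% lower). Of the log2 fold changes, 6 lay above 0 and 2 below, with a median of 0.075, beside a median of -0.0045 over all tested genes.

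The sequence upstream of the start is shown for the 2 genes with the smallest p, Egfr and Fgf7, and for Fgf10, the other epithelium-directed ligand. Each is 250 bases long, ends at the base before the RefSeq start (GRCm38.p6), and is written 5′ to 3′ on the gene's own strand. The plus strand holds all 3 genes, and the windows are chr11:16751953-16752202 for Egfr, chr2:126034408-126034657 for Fgf7 and chr13:118714449-118714698 for Fgf10. The windows of Egfr and Fgf7 end where the counted gene spans begin. That of Fgf10 lies inside its counted span, which begins further upstream at 118669791.
Egfr: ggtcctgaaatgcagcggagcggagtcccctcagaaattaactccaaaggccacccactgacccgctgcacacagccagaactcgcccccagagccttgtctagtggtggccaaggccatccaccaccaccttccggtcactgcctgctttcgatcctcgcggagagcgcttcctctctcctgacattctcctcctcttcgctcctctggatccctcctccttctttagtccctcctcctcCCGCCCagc
Fgf7: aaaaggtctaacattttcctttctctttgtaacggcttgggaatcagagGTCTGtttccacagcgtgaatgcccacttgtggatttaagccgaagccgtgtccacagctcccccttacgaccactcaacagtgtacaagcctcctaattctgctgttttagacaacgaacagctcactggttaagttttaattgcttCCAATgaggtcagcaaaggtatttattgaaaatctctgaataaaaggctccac
Fgf10: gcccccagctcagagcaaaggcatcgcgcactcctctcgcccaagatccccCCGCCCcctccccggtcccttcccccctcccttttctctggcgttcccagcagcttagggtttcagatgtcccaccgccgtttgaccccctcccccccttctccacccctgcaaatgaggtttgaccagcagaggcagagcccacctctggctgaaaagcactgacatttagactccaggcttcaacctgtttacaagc
Capitals mark matches, on either strand, to 5 motifs, with no overlap between matches: the TATA box TATAAA, the box CCAAT, the Sp1 box GGGCGG, the AP-1 site TGANTCA and the minimal Smad-binding element CAGAC. The Sp1 box lay 9 bases upstream of the start in Egfr and 199 in Fgf10, in both on the other strand, and is in 32.7% of 32851 RefSeq windows of this length. Fgf7 held CCAAT 53 bases upstream (33.8% of windows) and CAGAC, on the other strand, 201 bases upstream (42.2% of windows). TATAAA (12.4% of windows) and TGANTCA (6.75%) were in none of the 3. G and C made up 60.8% of the Egfr window, 43.6% of that of Fgf7 and 61.2% of that of Fgf10, beside a median of 52.4% over all windows. Windows were found for 8 of the 9 genes, all but Fgfr1. A match describes letters and not a bound site.

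Among the ligands, Fgf7 encodes keratinocyte growth factor, a mesenchymal signal to epithelia. It was at 5.92, 5.74, 5.72 and 3.81 FPKM in FTbR2KO 1 to 4, against 3.87, 4.26, 4.71 and 3.56 FPKM in TbR2fl/fl 5 to 8. FTbR2KO 1 to 3 lay within a narrow band above every control, and FTbR2KO 4 lay among the controls. The means were 5.30 ± 0.994 FPKM in FTbR2KO and 4.10 ± 0.498 FPKM in TbR2fl/fl libraries (SD, n = 4 each), a ratio of 1.29. In limma the log2 fold change came to 0.29 (SE 0.13, 95% confidence interval from 0.0064 to 0.58, adjusted p = 0.580), and the exact permutation p was 0.114. The value rests on 283 to 391 reads per library. The gene spans chromosome 2 from 126034658 to 126091185 with 4 exon regions, and no annotated exon of another gene overlaps them.

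The lowest Fgf7 value of each group was that of its library with Y-linked transcripts. Among the other 6 libraries the values were 5.72 to 5.92 FPKM in FTbR2KO and 3.87 to 4.71 FPKM in TbR2fl/fl, with no overlap (ratio of means 1.35). The exact permutation p was 0.10, the smallest that 3 against 3 allow. This split was chosen after the values were seen and leaves out FTbR2KO 4, the FTbR2KO library that lay among the controls. Neither the missing overlap nor this p therefore adds support, and 16.5% of the genes tested in the 6 libraries did not overlap either. In the 2 libraries with Y-linked transcripts Fgf7 was at 3.81 FPKM in FTbR2KO 4 and 3.56 FPKM in TbR2fl/fl 8. With presence of the Y-linked transcript as a covariate, chosen after seeing the data, limma's adjusted p for the group difference was 0.477 (SE 0.084). The difference itself, 0.29 on the log2 scale, could not move in that fit, because each group holds 1 such library of 4. The libraries with Y-linked transcripts differed from the others by -0.35 in that fit (SE 0.097, limma adjusted p = 0.790). With 1 such library per group, presence of Y-linked transcripts and any other feature of those libraries cannot be told apart.

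Fgf10, a ligand with the same epithelial receptor form that is also needed for white fat development in mice, was scarce. It was at 0.939, 0.350, 0.704 and 0.238 FPKM in FTbR2KO 1 to 4, from 75, 28, 64 and 25 reads. In TbR2fl/fl 5 to 8 it was at 0.429, 0.246, 0.276 and 0.107 FPKM, from 58, 32, 26 and 14 reads. FTbR2KO 1 and 3 lay above every control, and here too the library with Y-linked transcripts was the lowest of its group. The mean was 0.558 ± 0.323 FPKM in FTbR2KO and 0.265 ± 0.132 FPKM in TbR2fl/fl libraries (SD, n = 4 each), a ratio of 2.11 with an exact permutation p of 0.20. The log2 difference of 0.28 was 0.17 without FTbR2KO 1. The difference of 0.293 FPKM was smaller than the SD of FTbR2KO and larger than that of TbR2fl/fl libraries, and the groups overlapped. The gene's level lay below the filter of the limma fit. Antisense gene Gm16263 shares 123 bp of exon with it and had 0 FPKM in 7 of the 8 libraries, with 0.195 FPKM in TbR2fl/fl 7.

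Fgf18, a ligand best known from bone, cartilage and lung development, had the highest level of the ligands. It was at 17.4, 17.5, 17.1 and 13.9 FPKM in FTbR2KO 1 to 4, against 13.5, 13.5, 16.7 and 18.2 FPKM in TbR2fl/fl 5 to 8. FTbR2KO 4 stood below the other 3 of its group, the controls spread over both, and the groups overlapped. On the log2 scale the difference was 0.092 (SE 0.12, 95% confidence interval from -0.18 to 0.36, limma adjusted p = 0.840), and it ran from 0.034 without TbR2fl/fl 6 to 0.17 without TbR2fl/fl 8. Among the 6 libraries without Y-linked transcripts Fgf18 was at 17.1 to 17.5 FPKM in FTbR2KO and 13.5 to 16.7 FPKM in TbR2fl/fl (exact permutation p = 0.10). In the other 2 the order was turned round, with 13.9 FPKM in FTbR2KO 4 and 18.2 FPKM in TbR2fl/fl 8. The split, chosen after the values were seen, leaves out the lowest FTbR2KO and the highest control value, so this p adds no support. Of the genes tested in the 6 libraries, 16.5% did not overlap.

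Fgf2, the basic FGF, varied little. It was at 8.00, 8.73, 8.24 and 7.58 FPKM in FTbR2KO 1 to 4, against 7.92, 6.63, 8.42 and 8.19 FPKM in TbR2fl/fl 5 to 8. The groups overlapped, and the lowest value belonged to TbR2fl/fl 6. The fitted log2 difference was 0.059 (SE 0.085, 95% confidence interval from -0.13 to 0.25, limma adjusted p = 0.862), and it was -0.0077 without that library. Nudt6, transcribed from the opposite strand, shares 640 bp or 9.44% of the counted Fgf2 length and was at 0.642 ± 0.195 FPKM in FTbR2KO and 0.911 ± 0.207 FPKM in TbR2fl/fl libraries (SD, n = 4 each). Reads of the shared stretch cannot be assigned to a strand from these values.

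**Figure D1:**
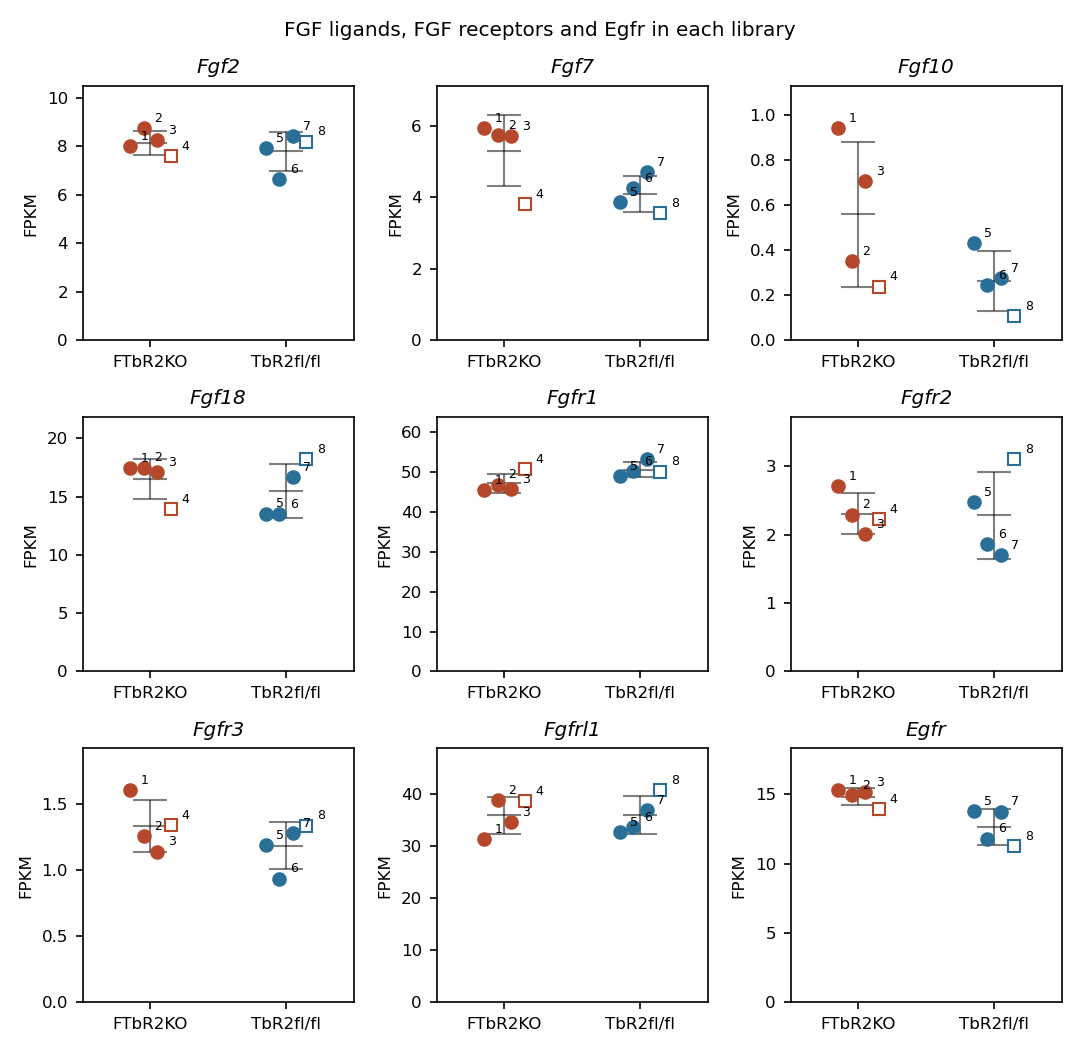
FPKM of each gene (vertical axes, from 0, scaled per gene) in the 4 FTbR2KO and 4 TbR2fl/fl libraries; numbers are library numbers, open squares are the libraries with Y-linked transcripts, and bars are mean ± SD. Egfr is the gene without overlap (13.9 to 15.3 FPKM in FTbR2KO, 11.3 to 13.8 FPKM in TbR2fl/fl), and for Fgf7 FTbR2KO 4 lies among the controls.

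Other ligand genes of the family were mostly at low levels. Of 18 FGF genes outside the set, 4 passed the filter, 12 of the other 14 stayed under 1 FPKM in all libraries, and for 4 no read was recovered. Fgf1, a ligand of all FGF receptors, was at 3.51, 3.21, 1.96 and 1.05 FPKM in FTbR2KO 1 to 4 and at 1.91, 1.60, 1.36 and 1.76 FPKM in TbR2fl/fl 5 to 8. Its FTbR2KO values reached both above and below those of the controls (log2 fold change 0.31, SE 0.23, limma adjusted p = 0.720). Fgf16, a ligand expressed in heart, was at 1.68 ± 0.305 FPKM in FTbR2KO and 1.83 ± 0.577 FPKM in TbR2fl/fl libraries (n = 4 each). The log2 fold changes of Fgf11 and Fgf14, whose products stay inside the cell, were 0.081 (SE 0.073) and 0.051 (SE 0.22). Fgf23, a hormone of phosphate balance made chiefly in bone, did not pass the filter but was uneven, at 2.29, 0.666, 3.35 and 0.0724 FPKM in FTbR2KO 1 to 4 and 0.282, 0.995, 0 and 0.562 FPKM in TbR2fl/fl 5 to 8. Fgf9 was at 0.916 ± 0.316 FPKM in FTbR2KO and 0.797 ± 0.132 FPKM in TbR2fl/fl libraries, and Fgf13 at 0.353 ± 0.161 FPKM in FTbR2KO and 0.354 ± 0.0375 FPKM in TbR2fl/fl libraries (SD, n = 4 each). Fgf5, Fgf8, Fgf12, Fgf17, Fgf20, Fgf21 and Fgf22 stayed at or below 0.776 FPKM, and Fgf3, Fgf4, Fgf6 and Fgf15 were those without a read.

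The same 3 ligand genes led in every library. Without the intracellular Fgf11 to Fgf14, Fgf18 made up 44.1 ± 2.20% of the summed FPKM of 18 FGF genes in FTbR2KO and 46.8 ± 3.01% in TbR2fl/fl libraries (SD, n = 4 each). Fgf2 made up 21.9 ± 2.70% in FTbR2KO and 23.6 ± 1.45% in TbR2fl/fl libraries. Fgf7 made up 14.02 ± 0.761% in FTbR2KO and 12.5 ± 1.90% in TbR2fl/fl libraries. The ranges of all 3 overlapped between the groups. The summed FPKM was 29.6 to 41.1 in FTbR2KO and 29.8 to 35.9 in TbR2fl/fl libraries, with FTbR2KO 4 again the lowest of its group. These shares are given as a description, with no test.

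**Figure D2:**
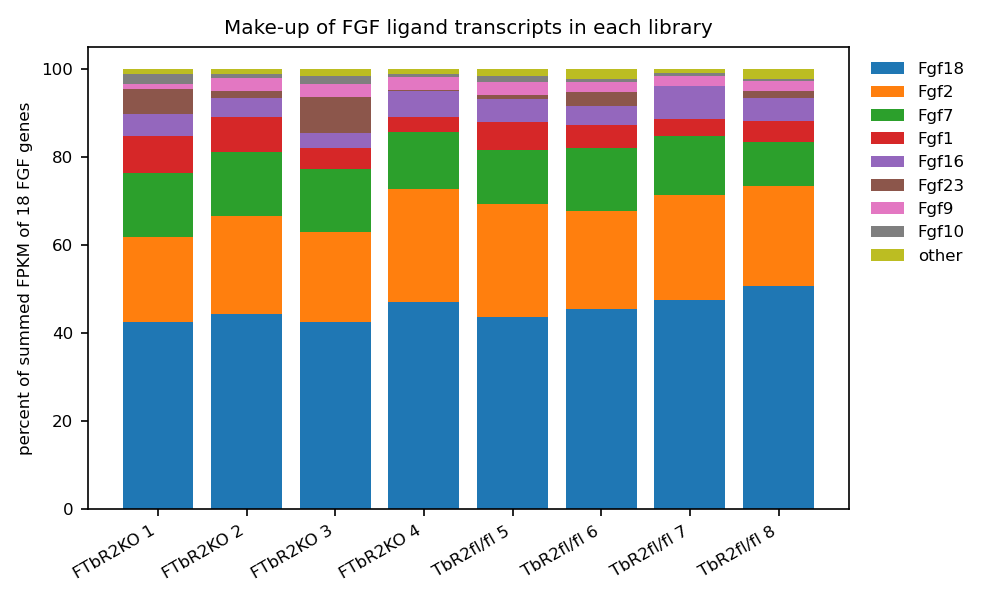
Percent of the summed FPKM of 18 FGF genes (vertical axis, Fgf11 to Fgf14 left out) held by each gene in each library (horizontal axis, FTbR2KO 1 to 4 and then TbR2fl/fl 5 to 8). Fgf18, Fgf2 and Fgf7 are the 3 largest shares in every library, with Fgf18 at 42.4 to 47.1% in FTbR2KO and 43.7 to 50.7% in TbR2fl/fl.

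Among the receptors, Fgfr1 dominated. It made up 92.5 ± 0.997% of the summed FPKM of the 4 kinase receptor genes Fgfr1 to Fgfr4 in FTbR2KO and 93.3 ± 1.37% in TbR2fl/fl libraries (SD, n = 4 each). Fgfr1 was at 45.4, 46.8, 45.6 and 50.7 FPKM in FTbR2KO 1 to 4, against 48.9, 50.2, 53.1 and 50.1 FPKM in TbR2fl/fl 5 to 8. FTbR2KO 1 to 3 lay below every control and FTbR2KO 4 among them, the same 3 libraries that lay above the controls for Fgf7. The means were 47.1 ± 2.44 FPKM in FTbR2KO and 50.6 ± 1.80 FPKM in TbR2fl/fl libraries (SD, n = 4 each). Its log2 fold change came to -0.10 (SE 0.078, 95% confidence interval from -0.28 to 0.075, limma adjusted p = 0.728; exact permutation p = 0.114), and after conversion to TPM it lay above 0 (0.064). The antisense gene Gm16159 shares 164 bp, 1.66% of the Fgfr1 length, and was at 0.821 ± 0.509 FPKM in FTbR2KO and 1.00 ± 0.338 FPKM in TbR2fl/fl libraries.

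Fgfrl1, whose product binds FGF ligands but lacks the kinase, was the next highest, at 31.4, 38.9, 34.7 and 38.7 FPKM in FTbR2KO 1 to 4 and 32.7, 33.7, 37.0 and 40.8 FPKM in TbR2fl/fl 5 to 8. The groups covered the same range (log2 fold change -0.0049, SE 0.10, 95% confidence interval -0.24 to 0.23, limma adjusted p = 0.993).

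Fgfr2 and Fgfr3 were low. Fgfr2, the receptor gene whose b form takes up Fgf7 and Fgf10, was at 2.72, 2.30, 2.00 and 2.23 FPKM in FTbR2KO 1 to 4, against 2.48, 1.86, 1.70 and 3.10 FPKM in TbR2fl/fl 5 to 8. The controls held both the lowest and the highest value. Between the groups the log2 difference was 0.027 (SE 0.14, 95% confidence interval from -0.28 to 0.34, limma adjusted p = 0.967). Annotated Fgfr2 exons share 314 bp (3.04% of its length) with Ctbp2 on the same strand, so part of its reads is uncertain.

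Fgfr3, best known from cartilage growth, was at 1.60, 1.25, 1.14 and 1.34 FPKM in FTbR2KO 1 to 4 and 1.19, 0.934, 1.28 and 1.33 FPKM in TbR2fl/fl 5 to 8. The groups overlapped (log2 fold change 0.095, SE 0.10, 95% confidence interval -0.14 to 0.33, limma adjusted p = 0.805), and the value was 0.038 without TbR2fl/fl 6 and 0.042 without FTbR2KO 1. Gene G630022F23Rik on the opposite strand shares 998 bp, 13.9% of the Fgfr3 length, and stayed at or below 0.0965 FPKM. Reads of that stretch cannot be assigned to a strand from these values. Fgfr4 was at 0.149 ± 0.0448 FPKM in FTbR2KO and 0.141 ± 0.0398 FPKM in TbR2fl/fl libraries (SD, n = 4 each), from 41 reads in the FTbR2KO and 52 reads in the TbR2fl/fl libraries. The Klotho co-receptor genes Kl, Klb and Lctl, needed by the hormone-like FGFs, stayed at or below 0.0886 FPKM in every library. Of the splicing factors that set the receptor forms, Esrp1, which drives the epithelial b forms, had no read in any library. Ptbp1 was at 45.3 ± 6.21 FPKM in FTbR2KO and 42.3 ± 5.22 FPKM in TbR2fl/fl libraries, and Rbfox2 at 23.2 ± 2.30 FPKM in FTbR2KO and 23.3 ± 1.41 FPKM in TbR2fl/fl libraries (n = 4 each).

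By mean level over the 8 libraries the order was Fgfr1 (48.8 FPKM), Fgfrl1 (36.0), Fgf18 (15.99), Egfr (13.7), Fgf2 (7.96), Fgf7 (4.70), Fgfr2 (2.30), Fgfr3 (1.26) and Fgf10 (0.411). Neighbouring ranges overlapped for Fgf18 and Egfr, where Fgf18 was the higher in 7 of 8 libraries. They also overlapped for Fgfr3 and Fgf10, although Fgfr3 was the higher within each of the 8 libraries. The ranges of the other neighbours were apart. Fgfr1 lay above 93.6% of all tested genes, Egfr above 76.3%, Fgf7 above 43.7% and Fgfr3 above 5.62%.

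Egfr was the gene with the smallest p of the set. It was at 15.3, 14.97, 15.2 and 13.9 FPKM in FTbR2KO 1 to 4, against 13.8, 11.8, 13.8 and 11.3 FPKM in TbR2fl/fl 5 to 8. All 4 FTbR2KO libraries lay above all 4 controls, although the lowest of them was above the highest control by little, and as for Fgf7 the library with Y-linked transcripts was the lowest of its group. The ratio of means was 1.17, and the value rests on 2946 to 4586 reads per library. Its log2 fold change in limma came to 0.22 (SE 0.085, 95% confidence interval from 0.026 to 0.41, limma adjusted p = 0.571), and the exact permutation p was 0.0286, the smallest that 4 against 4 allow and not adjusted for the number of genes. Its p ranked 602 among the 11667 tested genes. Egfr spans chromosome 11 from 16752203 to 16918158 on the plus strand with 30 exon regions, none shared with another gene.

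**Figure D3:**
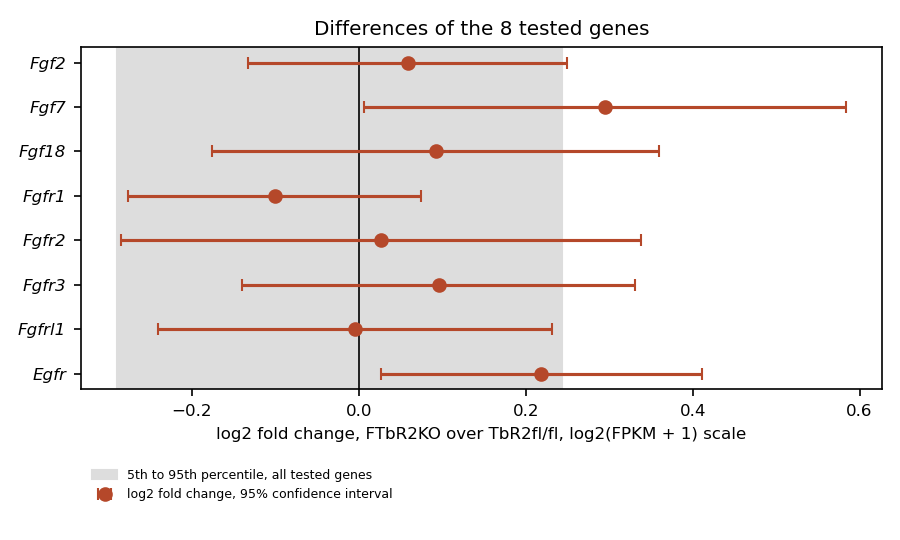
Log2 fold change (FTbR2KO over TbR2fl/fl, horizontal axis) with its 95% confidence interval for the 8 tested genes; the grey band holds the 5th to 95th percentile of all tested genes (-0.29 to 0.24). The intervals of Egfr (0.026 to 0.41) and Fgf7 (0.0064 to 0.58) lie above 0, and the other 6 include 0.

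Of the 8 tested genes, 4 did not overlap between groups among the 6 libraries without Y-linked transcripts, beside 16.5% of the genes tested there, 7.91% higher and 8.59% lower in FTbR2KO. Egfr, Fgf7 and Fgf18 were higher and Fgfr1 lower in FTbR2KO; Egfr was at 14.97 to 15.3 FPKM in FTbR2KO and 11.8 to 13.8 FPKM in TbR2fl/fl, and Fgfr1 at 45.4 to 46.8 FPKM in FTbR2KO and 48.9 to 53.1 FPKM in TbR2fl/fl. The exact permutation p was 0.10 for each, the smallest 3 against 3 allow. Fitted on these 6 libraries alone, limma's adjusted p was 0.370 for Fgf7, 0.513 for Fgf18, 0.548 for Egfr and 0.660 for Fgfr1. This split was chosen after the values were seen.

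Among the ligands of Egfr, Hbegf and Ereg were expressed at levels above 70.03% and 58.6% of all tested genes. Of 11 EGF family ligand genes, 2 passed the filter and 9 stayed under 1 FPKM in all libraries. Hbegf, the HB-EGF gene, was at 6.99, 12.6, 17.2 and 9.79 FPKM in FTbR2KO 1 to 4 and 5.67, 11.2, 10.1 and 11.4 FPKM in TbR2fl/fl 5 to 8. Ereg, the epiregulin gene, was at 4.55, 10.5, 12.2 and 5.79 FPKM in FTbR2KO 1 to 4 and 3.71, 7.34, 4.91 and 9.01 FPKM in TbR2fl/fl 5 to 8. For both genes FTbR2KO 1 and TbR2fl/fl 5 were the lowest of their groups, and the log2 fold changes were 0.23 (SE 0.27, limma adjusted p = 0.819) and 0.32 (SE 0.32, limma adjusted p = 0.777). Btc, the betacellulin gene, which is named after its values were seen, lay below the filter at 0.583 ± 0.1001 FPKM in FTbR2KO and 0.329 ± 0.105 FPKM in TbR2fl/fl libraries (SD, n = 4 each), with all 4 FTbR2KO libraries above all controls. Its reads numbered 202 in FTbR2KO and 161 in TbR2fl/fl libraries, and the exact permutation p was 0.0286, the smallest possible and not adjusted. Tgfa, the TGF-α gene, was at 0.410 ± 0.275 FPKM in FTbR2KO and 0.213 ± 0.0641 FPKM in TbR2fl/fl libraries, and Nrg1, a ligand of Erbb3 and Erbb4, at 0.913 ± 0.0390 FPKM in FTbR2KO and 0.763 ± 0.0880 FPKM in TbR2fl/fl libraries (SD, n = 4 each), both with overlap. Egf, Areg, Epgn, Nrg2 and Nrg4 stayed at or below 0.333 FPKM, and Nrg3 had no read. Erbb2, the partner receptor of Egfr, was at 6.56 ± 0.774 FPKM in FTbR2KO and 7.01 ± 0.412 FPKM in TbR2fl/fl libraries (log2 fold change -0.087, SE 0.087, limma adjusted p = 0.785), while Erbb3 and Erbb4 stayed at or below 0.287 FPKM.

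No gene of the 9 wider pathway lists passed limma's adjusted threshold in either direction. Among 16 tested regulators and sheddases of Egfr, 12 lay above 0 and 4 below (median log2 fold change 0.041), with 3, all higher, at an unadjusted p under 0.05. Over all tested genes 3.74% were higher and 4.87% lower at that p, and 5694 lay above 0 and 5973 below. Cbl, the ubiquitin ligase that sends activated Egfr to degradation, was at 5.08, 6.05, 5.37 and 5.05 FPKM in FTbR2KO 1 to 4, against 4.35, 3.45, 4.42 and 4.02 FPKM in TbR2fl/fl 5 to 8. The groups did not overlap (log2 fold change 0.34, SE 0.087, limma adjusted p = 0.571). That held for 2 of the 16 tested genes, both higher in FTbR2KO, and for 4.41% of all tested genes (2.52% higher and 1.89% lower). Adam17, the protease that releases Egfr ligands, was at 15.9 ± 1.66 FPKM in FTbR2KO and 13.5 ± 0.523 FPKM in TbR2fl/fl libraries, and Socs5, an adaptor that promotes Egfr breakdown, at 20.1 ± 1.26 FPKM in FTbR2KO and 17.6 ± 0.915 FPKM in TbR2fl/fl libraries (n = 4 each; limma adjusted p = 0.571 and 0.576).

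Among 25 tested genes of heparan sulphate and FGF binding, 18 lay above 0 and 7 below (median 0.067), with none at an unadjusted p under 0.05. Sdc1, the cell surface proteoglycan syndecan 1, was at 39.9, 46.8, 50.7 and 51.3 FPKM in FTbR2KO 1 to 4 and at 51.5, 60.5, 54.0 and 55.5 FPKM in TbR2fl/fl 5 to 8. Of the 25 genes it was the 1 without overlap, beside 4.41% of all tested genes (2.52% higher and 1.89% lower in FTbR2KO). Its FTbR2KO values all lay below the controls, by little, with 51.3 FPKM as their highest and 51.5 FPKM as the lowest control. The log2 fold change was -0.23 (SE 0.10, limma adjusted p = 0.587). The glypican gene Gpc6 had 0.21 on that scale (SE 0.10) and Hpse 0.28 (SE 0.14); Hpse is the heparanase gene that cleaves heparan sulphate.

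All 22 receptor adaptors and Ras-ERK kinases were tested, with 13 above 0 and 9 below (median 0.020), and with 1 higher and 1 lower at an unadjusted p under 0.05. Only Shc1 of the 22 was without overlap between the groups, beside 4.41% of all tested genes (2.52% higher and 1.89% lower in FTbR2KO). Shc1, an adaptor of Egfr and FGF receptors, was at 28.8 ± 1.02 FPKM in FTbR2KO and 32.5 ± 0.709 FPKM in TbR2fl/fl libraries (n = 4 each), with all 4 FTbR2KO libraries below all controls (log2 fold change -0.17, SE 0.070, limma adjusted p = 0.571). For the Ras activator gene Sos2 it was 0.26 (SE 0.11), and for the kinase gene Braf 0.17 (SE 0.079). Among 17 tested ERK feedback and target genes, 11 lay above 0 and 6 below (median 0.13), with 1 higher at an unadjusted p under 0.05. Only Spred1 of the 17 was without overlap, and the shares of all tested genes are those given for Shc1. Spred1, an inhibitor of Ras-ERK signalling, was at 17.5, 20.1, 18.01 and 18.2 FPKM in FTbR2KO 1 to 4, against 13.8, 15.4, 15.6 and 17.1 FPKM in TbR2fl/fl 5 to 8, without overlap (log2 fold change 0.24, SE 0.085, limma adjusted p = 0.571). Etv1, an ETS transcription factor gene downstream of FGF, was at 0.19 on that scale (SE 0.10) and the Sprouty gene Spry4 at 0.29 (SE 0.20).

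**Figure D4:**
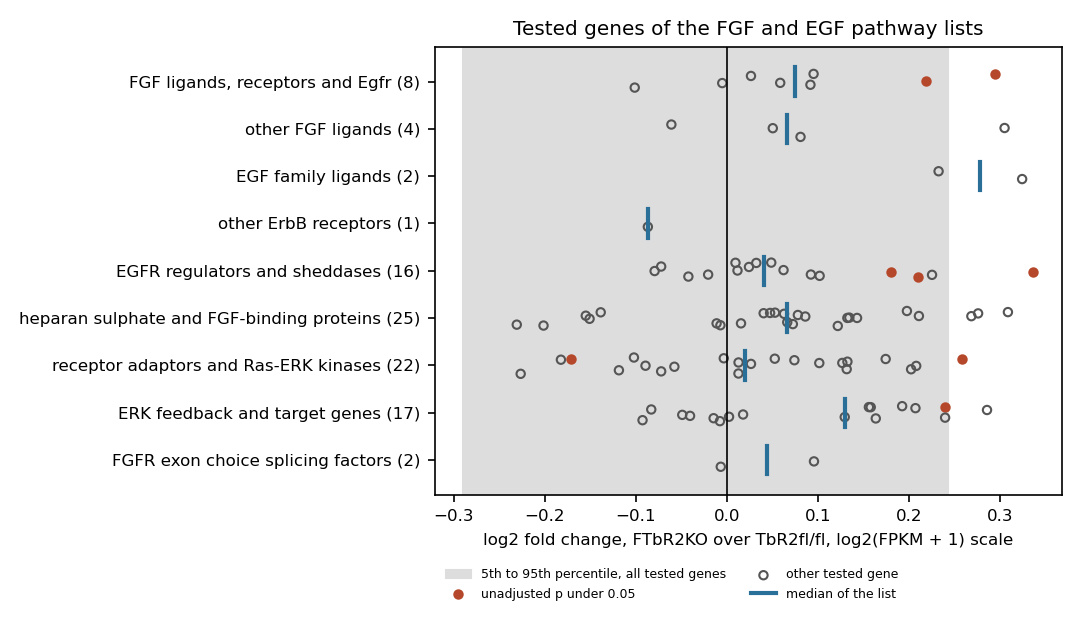
Log2 fold change (FTbR2KO over TbR2fl/fl, horizontal axis) of each tested gene, by list; numbers in brackets count tested genes, filled points have an unadjusted p under 0.05, bars are list medians and the grey band holds the 5th to 95th percentile of all tested genes. Egfr (0.22) and Fgf7 (0.29) are the filled points of the top list, and Cbl (0.34) has the largest value of the Egfr regulators.

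The mean of every epicardial and mesothelial marker differed in 1 direction. All 8, of which Muc16 stayed under 1 FPKM, had a higher mean in FTbR2KO libraries. Their summed level was 93.7, 99.1, 111 and 67.8 FPKM in FTbR2KO 1 to 4 and 54.2, 66.7, 41.0 and 82.9 FPKM in TbR2fl/fl 5 to 8. Aldh1a2, an enzyme of retinoic acid synthesis, made up most of this sum. Without it the other 7 summed to 35.8, 11.8, 23.3 and 4.25 FPKM in FTbR2KO 1 to 4 and 22.3, 9.89, 0.725 and 13.7 FPKM in TbR2fl/fl 5 to 8, so only FTbR2KO 1 and 3 lay above every control. Mural markers had the higher mean in FTbR2KO for 7 of 7, with overlapping sums (52.7 to 93.0 FPKM in FTbR2KO, 57.0 to 81.3 FPKM in TbR2fl/fl). The 7 lymphocyte markers were each under 1 FPKM in every library, and 4 had the higher mean in FTbR2KO. Their sums, 0.166 to 0.442 FPKM in FTbR2KO and 0.503 to 0.892 FPKM in TbR2fl/fl, did not overlap. Without Trbc2, the most abundant, the sums overlapped, at 0.103 to 0.442 FPKM in FTbR2KO and 0.0964 to 0.351 FPKM in TbR2fl/fl. Of the 10 fibroblast markers, 4 had the higher mean in FTbR2KO: Pdgfra, Dcn, Lum and Postn. Pdgfra overlapped between groups, at 57.1 to 85.6 FPKM in FTbR2KO and 45.5 to 71.1 FPKM in TbR2fl/fl. The collagen gene Col1a1 was lower without overlap, at 3496 to 4508 FPKM in FTbR2KO and 4682 to 5338 FPKM in TbR2fl/fl. So was Col1a2, at 1337 to 1774 FPKM in FTbR2KO and 1834 to 1998 FPKM in TbR2fl/fl. The part of these markers in the values of Egfr, Fgf7 and Fgf18 was not tested, and in sorted bulk samples a change in the share of a cell type and a change in RNA per cell cannot be told apart.

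**Figure D5:**
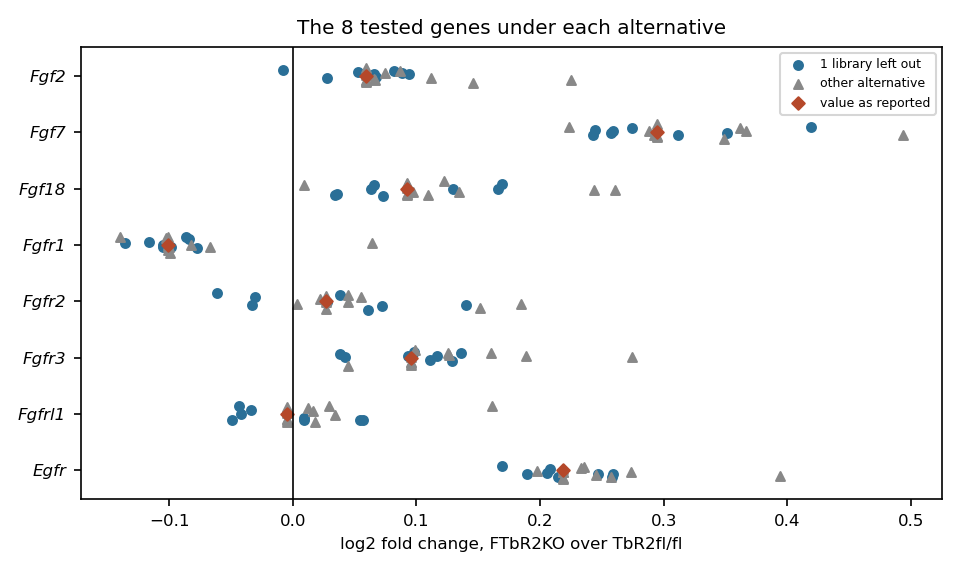
Log2 fold change (FTbR2KO over TbR2fl/fl, horizontal axis) of the 8 tested genes as reported (diamonds), with 1 library left out (circles) and under the other alternatives (triangles). Egfr (0.17 to 0.39) and Fgf7 (0.22 to 0.49) stay above 0 throughout, whereas Fgfrl1 lies on both sides of 0 (-0.049 to 0.16).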

How the data were processed

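RNA-seq of 8 samples of sorted fibroblasts was analysed from the gene-level FPKM values that the authors deposited for 54532 genes. HTSeq 0.6.1, Cufflinks 2.1.1, TopHat2 2.0 and CASAVA, and the genome builds GRCm38.p6 and mm10, are listed without roles, per the submitters' processing notes. No source used here states how strand was handled. Multiplying FPKM by gene length gave whole reads, up to 1 factor per library, for 100% of nonzero values (tolerance 0.01 of a read), so reads could be recovered. Median-of-ratios factors over the deposited values were 1 in every library. The values thus already stood on that scale rather than on plain depth, and that alternative changed nothing. Gene lengths and spans of all 9 genes equalled those of GENCODE M21 (GRCm38).

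Genes with at least 1 FPKM in at least 4 samples (11667) were tested with limma 3.58.1 in R 4.3.3 on log2(FPKM + 1), which understates changes of low genes. The variance trend was on, the test two-sided, and p was adjusted by Benjamini-Hochberg over all tested genes (threshold 0.05). The exact permutation test was two-sided, and for 4 against 4 samples its smallest p is 0.0286. The limma fit was also tried on simulated data with the same variability set for every gene. That setting is simpler than these libraries, and no conclusion is drawn from it. The genes and lists were chosen with earlier results of these data known. All 9 genes of the set were named, with the 3 tested genes of smallest p from each wider list and every tested gene of the ligand and receptor lists. Ligand and receptor genes outside the test were named, and libraries split by Y-linked transcripts, after values were seen. Nothing in the labels says that samples were separate animals, and p-values cover the spread among these samples alone, which may be technical.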

Additional observations from a re-analysis of the deposited data

Results flagged for a closer look

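Values of 31 genes were screened in both groups of 4 for a library far from the rest of its own group, in which chance alone marks about 1 in 20 groups, and 3 of 62 were marked. Fgf7 in FTbR2KO 4 was at 3.81 FPKM, against 5.72 to 5.92 FPKM in the other 3 FTbR2KO libraries. Fgf18 in the same library was at 13.9 FPKM, against 17.1 to 17.5 FPKM in the other 3. The proteoglycan gene Gpc6 was at 40.4 FPKM in TbR2fl/fl 5, against 34.9 to 35.5 FPKM in the other controls. FTbR2KO 4 carried Y-linked transcripts and had the lowest epicardial marker sum of its group; the part of either was not tested.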

How the results depend on the processing

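Over 20 alternatives, 18 planned and 2 added after seeing the data, no gene of the set and no gene of the wider lists passed limma's adjusted threshold. Egfr, Fgf18 and Tgfbr2 kept their direction in every alternative, as did Fgf7, Fgfr3 and Fgf10 in those that gave a value, though not their size; the stricter filter removed Fgf7, Fgfr2 and Fgfr3. Limma's adjusted p ran from 0.157 to 0.954 for Egfr and from 0.211 to 0.954 for Fgf7. Over all genes 2 passed; the count was 1 with the stricter filter, 0 without FTbR2KO 1 and TbR2fl/fl 5 together (1197 genes at an unadjusted p under 0.05), and 1 to 6 with 1 library left out, the 6 without FTbR2KO 4 and 1 without FTbR2KO 1, 2 or 3. TPM moved the median of all genes to 0.15, and there Fgfr1 lay at 0.064, Fgfrl1 at 0.16, Egfr at 0.39 and Fgf7 at 0.49. Fgf18 was 0.0089 without FTbR2KO 1 and TbR2fl/fl 5 and 0.24 without FTbR2KO 4 and TbR2fl/fl 8. Fgfrl1 was also above 0 with quantile normalization (0.034), array weights (0.029), voom on recovered reads (0.017), without FTbR2KO 1 and TbR2fl/fl 5 (0.012) and without FTbR2KO 4 and TbR2fl/fl 8 (0.018). With 1 library left out Fgfrl1 ran from -0.049 to 0.056, Fgfr2 from -0.061 to 0.14 and Fgf2 from -0.0077 to 0.094, Fgf18 from 0.034 to 0.17, Fgfr3 from 0.038 to 0.14 and Fgf10 from 0.17 to 0.39; the cause was not tested. No paired analysis was possible because the groups share no replicate number. Fgf10, with 14 to 75 reads per library, is limited by depth.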

Other observations

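For each tested gene of the set, the genes most like it by Pearson's r of log2(FPKM + 1) over the 8 libraries were looked up among 10548 named genes, as a description without a test. Egfr was most like Trps1 (r = 0.989) and Fam120c (0.979), Fgf7 most like Ak3 (0.982) and Enpep (0.972), and Fgfr1 most like Lefty1 (0.978) and P3h3 (0.974). Fgfr3 was most like Col4a4 (0.951) and Col4a3 (0.929), which encode chains of basement membrane collagen. Fgfr2 was most like Egln3 (0.969) and Zfp983 (0.924), Fgfrl1 most like Dnajc24 (0.983) and Plod1 (0.966), Fgf2 most like Atg9a (0.920) and Dusp19 (0.916), and Fgf18 most like Saal1 (0.914) and Emp2 (0.905). By rank (Spearman's rho) the likeness was lower for Fgf2 with Atg9a (0.690) and Dusp19 (0.738) and for Fgf18 with Saal1 (0.833) and Emp2 (0.714). Each r was picked as the highest among 10548, so a high value is no evidence of a link. The points of each r share the same 8 libraries and their depth.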
